A study of Mus musculus with 4 samples.

Results

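Respiratory complex I (NADH:ubiquinone oxidoreductase) was followed here through 34 of its nuclear-encoded subunit genes, taken as a list of symbols by a rule that uses no measured value, out of 23521 genes in the table. All 34 had a row in every library, none was listed at 0, and all 34 passed the filter on low values (a mean of at least 1 RPKM), so each of them was tested among 10209 genes. RPKM is the number of reads per kilobase of transcript, scaled to the mapped reads of the library, so levels of different genes can be set side by side per length.

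Complex I is the entry point of the mitochondrial respiratory chain. It takes electrons from NADH through a flavin and a chain of iron-sulfur clusters in its matrix arm, passes them to ubiquinone, and pumps protons across the inner membrane through its membrane arm. Its catalytic core is shared with bacteria and comes partly from the nucleus and partly from mitochondrial DNA, while accessory subunits, all nuclear, surround the core and are needed for assembly and stability. The mitochondrially encoded subunits are not analysed here. Hepatocytes and hepatoma cells depend on the complex to reoxidise the NADH made by the citric acid cycle and by fatty acid oxidation.

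The study lowered Chd1, an ATP-dependent chromatin remodeler, in Hepa1-6, a mouse hepatoma line whose labelled genotypes are wild type for Control and Chd1 knock down for Chd1KD. Control cells (2 libraries) carried lentivirus with a scrambled shRNA and Chd1KD cells (2 libraries) lentivirus with an shRNA directed at Chd1, and all 4 were kept under puromycin at 4 μg/ml over a 3-week selection. Polyadenylated RNA was sequenced from 10 μg of total RNA. Whether replicates stem from separate transductions, and how many shRNA sequences were used, is not in the labels, so p-values measure the spread between these libraries only, which may be technical. In such bulk RNA, a change in the cells present and a change in the RNA per cell cannot be told apart.

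Chd1 measured 21.4 and 22.5 RPKM in Control and 10.4 and 11.3 in Chd1KD, a ratio of 0.49 (limma, adjusted p = 0.012). Summed RPKM ran from 459381 to 484490 per library, with the highest sum in Control replicate 1, and sequencing depth is unknown. Of 9 hepatocyte and hepatoma markers, 6 passed the filter, among them Afp, Alb, Apoe and Hnf4a, while Ttr and Serpina1a were listed at 0 in every library and Apoa1 reached at most 0.369 RPKM. At an unadjusted p under 0.05, 4 of these 6 were lower and 1 (Afp) was higher in Chd1KD, and none passed over all genes (limma, lowest adjusted p = 0.077). The summed level of the 9 ranged from 1410.3 to 2276.9 RPKM in Control and from 995.2 to 1321.4 in Chd1KD, and Apoe made up most of it, at 1221.8 and 2022.6 RPKM in Control and 784.4 and 1080.5 in Chd1KD. Afp had a ratio of 1.63. Alb had a ratio of 1.28 with overlapping groups, at 18.6 and 55.6 RPKM in Control and 42.2 and 53.0 in Chd1KD. None of the 6 endothelial, 7 stellate and fibroblast or 5 lymphocyte markers reached the filter (5, 5 and 4 of them were listed at 0 in every library), and 1 of 6 macrophage markers with a row did. Of 5 cholangiocyte markers, 4 were tested and all 4 were lower at an unadjusted p under 0.05 (limma, adjusted p = 0.10 to 0.20), and the 5 summed to 190.6 to 214.4 RPKM in Control and 150.9 to 157.0 in Chd1KD, most of it Spp1 (188.8 and 161.7, then 131.9 and 137.0 RPKM in the same order). The part of these markers in the complex I values was not tested.

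Complex I mRNAs differed little between Control and Chd1KD, and none of the 34 subunits passed the test over all genes (limma, Benjamini-Hochberg adjusted p under 0.05), where 0.46% of all tested genes did. The ratio of group means lay between 0.86 and 1.31 over the 34, and between 0.86 and 1.15 with Ndufs5 left out. The median log2 fold change of the 34 was -0.05, beside -0.02 over all tested genes. Of the 34, 21 had a negative fold change, or 61.8%, beside 56.5% of all tested genes.

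At an unadjusted p under 0.05 (limma), 4 subunits were lower (Ndufs7, Ndufa6, Ndufc1 and Ndufb7), against 11.3% of all tested genes, and 1 was higher (Ndufs5), against 7.24%. Together these 5 are 14.7% of the subunits, below the 18.5% of all tested genes at that level, so their number does not set the complex apart. The values of the 2 groups did not overlap for 5 subunits that were lower and 2 that were higher in Chd1KD. Over all tested genes 30.5% were lower without overlap and 21.3% higher. The 95% interval of the fold change lay inside 1.5-fold in either direction for 33 of the 34, Ndufs5 being the exception. These intervals rest on the spread between these libraries only, which may be technical, and do not bound the effect of the knockdown beyond them.

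**Figure D1:**
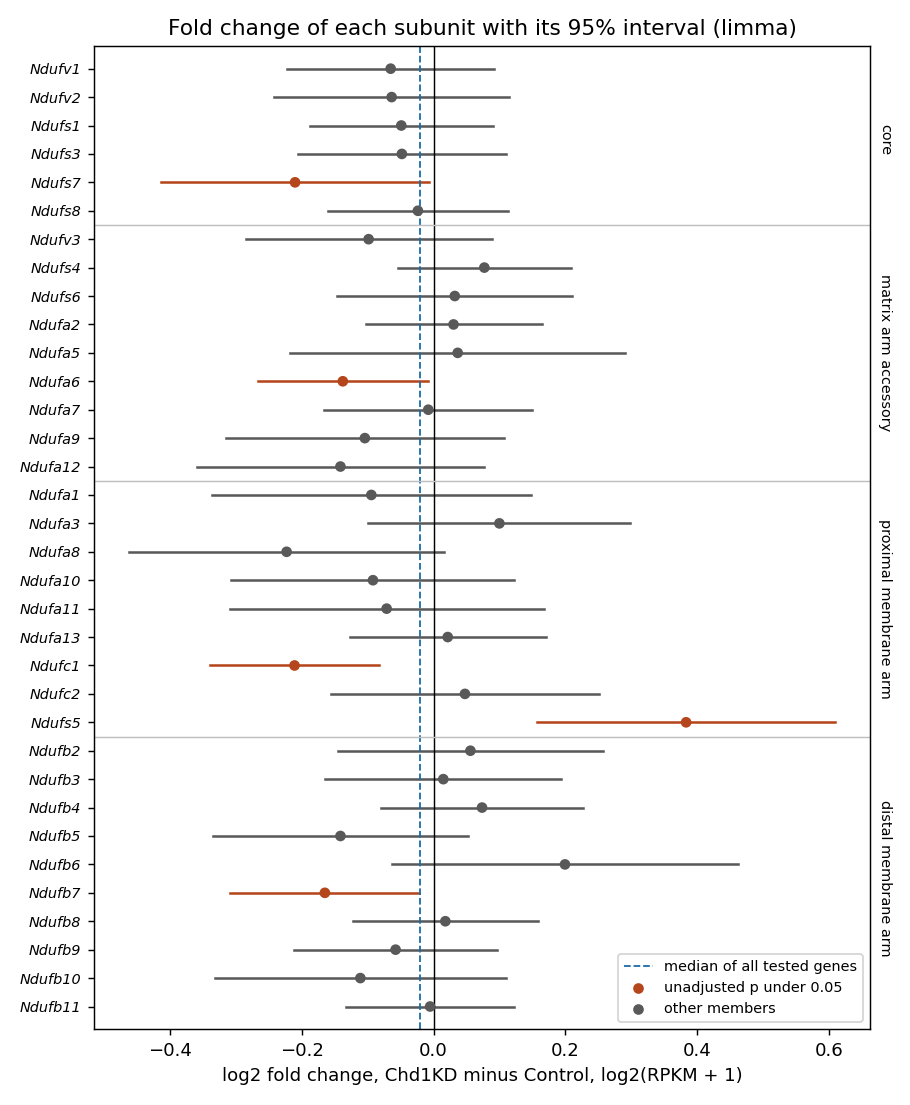
Log2 fold change of each of the 34 subunits (Chd1KD minus Control, log2(RPKM + 1) scale) with its 95% interval from limma, grouped by place in the complex; the dashed line is the median of all tested genes (-0.02). The 5 subunits in orange had an unadjusted p under 0.05, and none of the 34 passed after adjustment over all genes.

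The level of the subunits differed far more between genes than between groups. Mean RPKM over the 4 libraries ran from 15.8 for Ndufa11 to 272.9 for Ndufb9, a 17.3-fold range for proteins present together in the complex, with a median of 90.0 RPKM beside 12.9 over all tested genes. The highest were Ndufb9, a distal membrane-arm subunit of the LYR family (290.5 and 266.5 RPKM in Control, 271.0 and 263.6 in Chd1KD), Ndufa3 with a mean of 221.8 RPKM, and Ndufb8, which measured 194.9 and 185.4 RPKM in Control and 196.2 and 188.8 in Chd1KD. The lowest were Ndufa11, a membrane-arm subunit (17.7 and 14.7 RPKM in Control, 16.2 and 14.5 in Chd1KD), Ndufs4 and Ndufb5, with means of 42.1 and 45.1 RPKM. Accessory subunits stood at both ends of this order, and the 6 core subunits of the matrix arm lay between 50.6 and 82.2 RPKM.

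**Figure D2:**
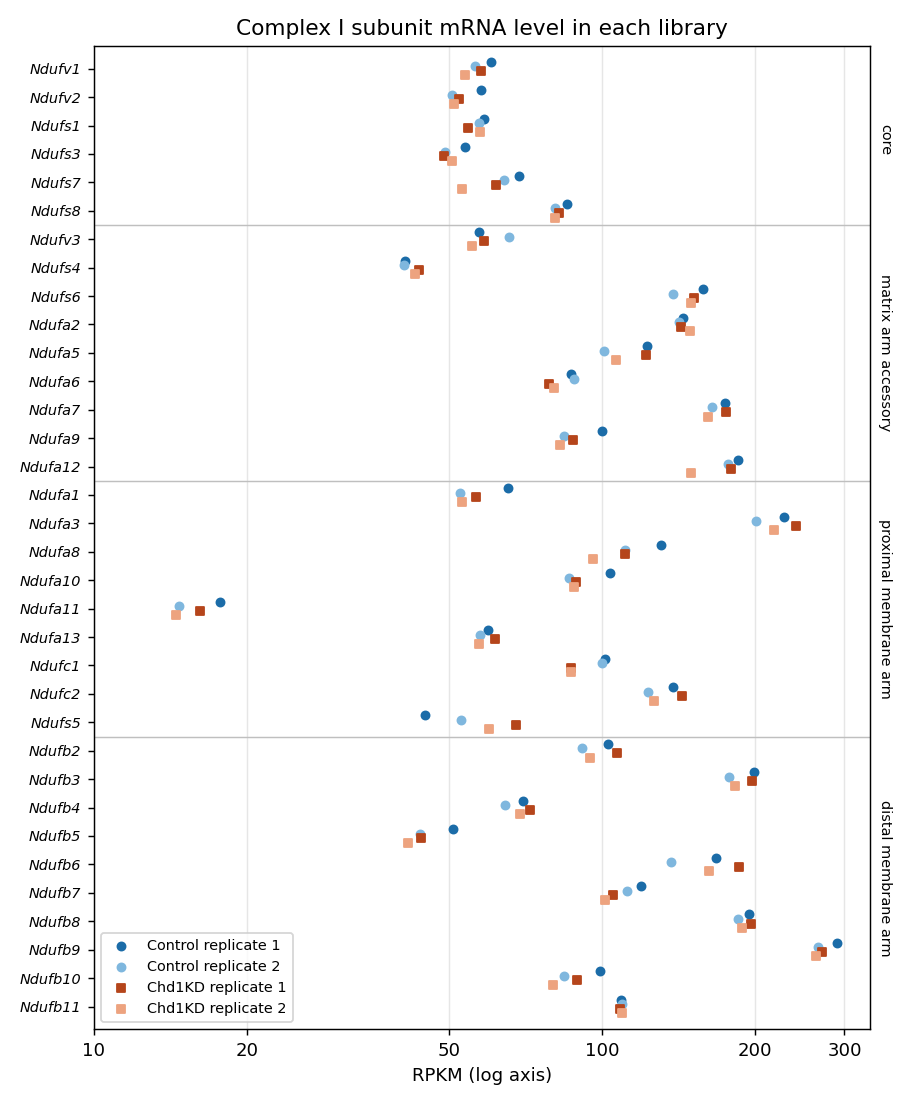
RPKM of each subunit in each library on a log axis (circles Control, squares Chd1KD, dark replicate 1, light replicate 2), grouped by place in the complex. The 4 libraries of a subunit lie close together beside the distance between subunits, with Ndufa11 lowest (mean 15.8 RPKM) and Ndufb9 highest (272.9 RPKM).

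The core subunits of the matrix arm carry the redox groups. The fold change was negative for all 6 on the list (median -0.06), and none of them passed over all genes (limma, 1 at an unadjusted p under 0.05). Ndufs7, which holds the cluster next to the ubiquinone site (chromosome 10, 80249105 to 80256794, mm10), measured 68.6 and 64.2 RPKM in Control and 61.9 and 52.9 in Chd1KD. Both Chd1KD libraries lay below both Control libraries. On the log2 scale Chd1KD was at -0.21 relative to Control, SE 0.09 (limma, unadjusted p = 0.044, adjusted p = 0.26), and it was -0.10 without Chd1KD replicate 2 and -0.32 without Chd1KD replicate 1.

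Ndufv1, the subunit that binds NADH and the flavin, measured 60.5 and 56.3 RPKM in Control and 57.7 and 53.8 in Chd1KD. Ndufv2, its iron-sulfur partner, measured 57.9 and 50.7 RPKM in Control and 52.4 and 51.2 in Chd1KD. Ndufs1, the largest core subunit of the matrix arm and carrier of several iron-sulfur clusters, measured 58.7 and 57.2 RPKM in Control and 54.5 and 57.4 in Chd1KD. For all 3 the groups overlapped and adjusted p was 0.63 to 0.69 (limma). Ndufs3 and Ndufs8, the remaining core members, had ratios of 0.97 and 0.98.

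Ndufs1, Ndufs6, Ndufs8 and Ndufv3 had more than 1 transcript row, and the other 30 had 1. The 4 Ndufs1 rows had ratios on both sides of 1. NM_001160039 averaged 15.3 ± 1.89 RPKM in Control and 12.1 ± 0.405 in Chd1KD (SD, n = 2 each), a ratio of 0.79, while NM_001160038 had a ratio of 1.1 and the most abundant row, NM_145518, of 1.03. The sign of the gene turned when the most abundant row alone was used (0.04). Ndufs6, a zinc-binding matrix-arm subunit, was split between a coding row and a noncoding one. The coding row NM_010888 measured 148.3 and 130.1 RPKM in Control and 147.4 and 145.2 in Chd1KD, whereas the noncoding NR_033306 measured 9.41 and 7.85 in Control and 4.41 and 4.71 in Chd1KD. The noncoding row had a ratio of 0.53, the largest relative difference among rows of any subunit with several rows, and transcript rows were not tested. In Ndufs8, NM_001271443 held nearly all of the level with a ratio of 0.99. NM_144870 had 0.86, and NM_001271444 stayed at or below 0.488 RPKM.

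Accessory subunits of the matrix arm stabilise the NADH and ubiquinone modules. Of these 9, 5 were negative and 4 positive (median log2 fold change -0.01). Ndufa6, a LYR-motif subunit near the ubiquinone site (chromosome 15, 82350139 to 82354291), measured 86.9 and 88.2 RPKM in Control and 78.7 and 80.3 in Chd1KD. The groups did not overlap, and the replicates of each lay closer together than the groups. Its log2 fold change was -0.14, SE 0.05 (limma, unadjusted p = 0.040, adjusted p = 0.25). Ndufa12, a matrix-arm accessory subunit that takes the place of an assembly factor late in assembly, measured 185.1 and 176.6 RPKM in Control and 179.6 and 149.5 in Chd1KD, and its log2 fold change of -0.14 was -0.01 without Chd1KD replicate 2. Ndufs4, whose loss causes Leigh-like disease in mice, had a positive fold change without overlap, at 41.0 and 40.8 RPKM in Control and 43.6 and 42.8 in Chd1KD (ratio 1.06, limma, adjusted p = 0.49). Ndufv3 measured 57.2 and 65.6 RPKM in Control and 58.7 and 55.6 in Chd1KD, and its groups overlapped. The other 5 (Ndufs6, Ndufa2, Ndufa5, Ndufa7 and Ndufa9) had ratios from 0.93 to 1.02 and overlapping groups.

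The proximal membrane arm held the subunits with the smallest p in each direction. Of its 9 members, 5 were negative and 4 positive, with a median of -0.07. Ndufc1, a small membrane-spanning subunit (chromosome 3, 51405479 to 51408955), had the smallest p of the lower members, with 101.5 and 99.8 RPKM in Control and 86.7 and 87.0 in Chd1KD. Both groups were tight and well separated, and the ratio was 0.86. The difference on the log2 scale was -0.21, SE 0.05 (limma, unadjusted p = 0.0060, adjusted p = 0.13), and it stayed between -0.22 and -0.20 when any 1 library was left out. Ndufa8, a twin-cysteine subunit on the intermembrane-space side, had the most negative fold change of all 34 (-0.22, SE 0.10, limma, adjusted p = 0.29), but this ranged from -0.34 without Control replicate 2 and -0.32 without Chd1KD replicate 1 to -0.12 without Chd1KD replicate 2 and -0.10 without Control replicate 1. Without either of the last 2 libraries named, and with a GC and length trend removed, Ndufc1 was the more negative. Ndufa8 measured 130.9 and 111.0 RPKM in Control and 110.8 and 96.0 in Chd1KD, so the 2 Control libraries lay farther apart than the group means, and the groups were separate by a narrow margin. Ndufa3 measured 227.9 and 200.5 RPKM in Control and 241.0 and 217.9 in Chd1KD with overlapping groups. Ndufa1, Ndufa10, Ndufa11, Ndufa13 and Ndufc2 had ratios of 0.93 to 1.03.

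Ndufs5, an intermembrane-space subunit with twin cysteine motifs (chromosome 4, 123712710 to 123718186), had the largest positive fold change. It measured 44.9 and 52.7 RPKM in Control and 67.8 and 59.9 in Chd1KD, a ratio of 1.31, and the groups did not overlap. Its log2 fold change was 0.38, SE 0.09 (limma, unadjusted p = 0.0053, adjusted p = 0.12). Among the alternatives that kept all 4 libraries it did not pass over all genes. Without Control replicate 2, which leaves 1 Control value, the log2 fold change of Ndufs5 was 0.50. Without Control replicate 1 it was 0.27 and without Chd1KD replicate 1 it was 0.30.

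The level of Ndufs5 is uncertain because the genome holds a near-identical copy that the table also lists. The processed pseudogene Ndufs5-ps lies on chromosome 16 from 42955580 to 42956079, where GENCODE annotates BC002163, which aligned to the Ndufs5 transcript at 99.4% identity over 319 of 525 bases. Ndufs5-ps has 2 transcript rows, summed here, and Ndufs5 has 1. Summed in this way, Ndufs5-ps measured 56.1 and 56.3 RPKM in Control and 60.9 and 53.8 in Chd1KD, about as much as Ndufs5 itself. The sum of both was 101.0 and 109.0 RPKM in Control and 128.7 and 113.7 in Chd1KD. On that sum the groups still did not overlap, and the ratio was 1.15 in place of 1.31. Ndufs5 took 44.5% and 48.4% of the sum in Control and 52.7% and 52.7% in Chd1KD. How reads were divided between the copies is not given in the sources used here.

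**Figure D3:**
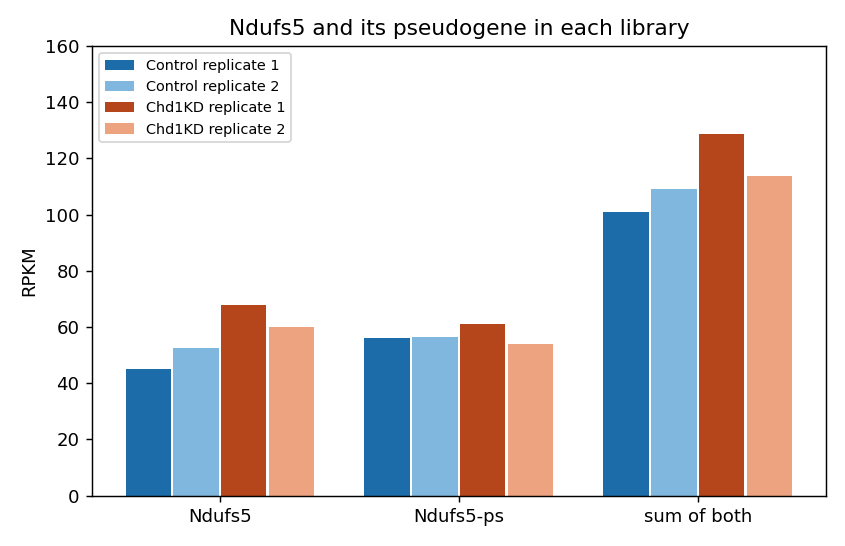
RPKM of Ndufs5, of its pseudogene Ndufs5-ps and of their sum in each of the 4 libraries (bars from 0). Ndufs5 was higher in both Chd1KD libraries (67.8 and 59.9 RPKM) than in both Control libraries, whereas Ndufs5-ps lay between 53.8 and 60.9 RPKM in all 4 with overlapping groups.

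The distal membrane arm ends in the proton-pumping modules farthest from the matrix arm. Its 10 accessory members were divided evenly, 5 negative and 5 positive, with a median of 0.00. Ndufb7, a twin-cysteine subunit (chromosome 8, 83566758 to 83571623), measured 119.3 and 112.1 RPKM in Control and 105.0 and 101.2 in Chd1KD. The groups did not overlap (log2 fold change -0.16, SE 0.06, limma, unadjusted p = 0.030, adjusted p = 0.22). Ndufb6, a membrane-spanning subunit, had the largest positive fold change of this arm, at 167.8 and 136.5 RPKM in Control and 186.1 and 162.4 in Chd1KD. The spread between the Control libraries exceeded the difference of means, and the groups overlapped (ratio 1.15, limma, adjusted p = 0.37). Ndufb5 measured 50.9 and 43.9 RPKM in Control and 44.0 and 41.6 in Chd1KD. Ndufb10 averaged 91.6 ± 10.5 RPKM in Control and 84.6 ± 6.49 in Chd1KD (SD, n = 2 each), also with overlap. Ndufb2, Ndufb3, Ndufb4, Ndufb8, Ndufb9 and Ndufb11 had ratios between 0.96 and 1.05. Ndufb11, an X-linked subunit, had the smallest fold change in size of the 34 (-0.01), with 109.0 and 109.7 RPKM in Control and 108.3 and 109.7 in Chd1KD.

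The subunits differed in a shared direction between replicates of a group as well as between some pairs of libraries from different groups. Control replicate 2 was lower than Control replicate 1 for 30 of the 34, with a median log2 difference of -0.12, where all tested genes had a median of -0.03 and 59.3% were lower. Chd1KD replicate 2 was lower than Chd1KD replicate 1 for 28 of the 34, with a median of -0.08, where all tested genes had a median of -0.01 and 52.1% were lower. Between the groups the sign depended on the pair taken: the subunit median was -0.05 and -0.12 for the 2 Chd1KD libraries against Control replicate 1, and 0.05 and 0.00 against Control replicate 2. All tested genes had medians of -0.03 and -0.04 against Control replicate 1, and of -0.01 and -0.01 against Control replicate 2. Against Control replicate 1, 23 and 30 of the 34 were lower in Chd1KD replicates 1 and 2, beside 58.3% and 58.5% of all tested genes. Against Control replicate 2, 9 and 16 were lower in the same order, beside 51.4% and 52.5% of all tested genes. These pairs share libraries. For 20 of the 34 the highest library was Control replicate 1, and the share of all tested genes is not given here.

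Together the 34 subunits made up 0.773% and 0.741% of the summed RPKM in Control replicates 1 and 2, and 0.781% and 0.744% in Chd1KD replicates 1 and 2. The share was higher in the replicate numbered 1 of either group. In 5 of the 34, the fold change between groups was larger in size than both differences within groups. The share of all tested genes is not given here, so this count cannot be compared with other genes. The labels attach no batch or day to the replicate numbers, and the part of library preparation in this pattern was not tested. The median fold change of the subunits was 0.03 without Control replicate 1 and -0.09 without Control replicate 2.

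**Figure D4:**
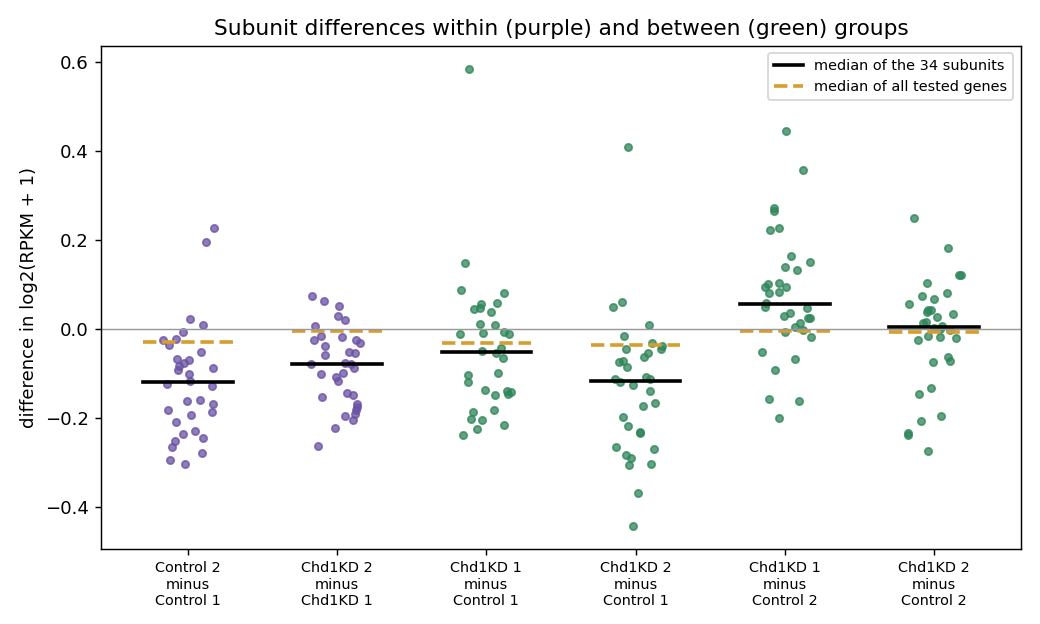
Difference in log2(RPKM + 1) of each of the 34 subunits for the 2 pairs of libraries within a group (purple) and the 4 pairs between groups (green), with the median of the subunits (black) and of all tested genes (dashed). The within-group medians are -0.12 and -0.08, and the between-group medians run from -0.12 to 0.05.

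The regulatory sequences next to the genes were read from the RefSeq promoter table (GRCm38.p6, the assembly behind mm10), which spans 250 bases before to 50 after each start. It matched 31 of the 34 subunits with 33 promoters and held no entry for Ndufs1, Ndufa2 and Ndufb9. The 200 bases before the start are shown for the 5 subunits with an unadjusted p under 0.05, because these had the smallest p of the 34. They are written 5′ to 3′ on the strand of the gene, with matches to the motifs listed below in capitals. Ndufs5 is at chr4:123718187-123718386 on the minus strand, Ndufc1 at chr3:51408956-51409155 (minus), Ndufs7 at chr10:80249249-80249448 (plus), Ndufa6 at chr15:82354292-82354491 (minus) and Ndufb7 at chr8:83566558-83566757 (plus). For Ndufs7 the start used, 80249449, and the bases shown lie inside the gene span given above, which begins at 80249105.
Ndufs5: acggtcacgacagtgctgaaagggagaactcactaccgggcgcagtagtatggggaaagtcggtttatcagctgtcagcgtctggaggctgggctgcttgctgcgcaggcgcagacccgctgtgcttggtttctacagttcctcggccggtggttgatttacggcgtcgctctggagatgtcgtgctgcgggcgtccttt
Ndufc1: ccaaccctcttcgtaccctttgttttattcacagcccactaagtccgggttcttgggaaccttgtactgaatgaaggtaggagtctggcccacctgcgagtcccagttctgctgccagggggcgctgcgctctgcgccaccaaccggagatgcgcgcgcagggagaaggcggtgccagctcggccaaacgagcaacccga
Ndufs7: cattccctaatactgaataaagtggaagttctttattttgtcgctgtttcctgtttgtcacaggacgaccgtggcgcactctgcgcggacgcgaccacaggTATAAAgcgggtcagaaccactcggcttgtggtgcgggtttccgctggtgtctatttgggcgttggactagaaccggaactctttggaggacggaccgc
Ndufa6: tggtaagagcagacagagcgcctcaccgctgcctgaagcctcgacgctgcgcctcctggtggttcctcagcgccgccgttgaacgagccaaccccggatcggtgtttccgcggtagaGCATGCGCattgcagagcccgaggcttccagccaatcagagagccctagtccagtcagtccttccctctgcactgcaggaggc
Ndufb7: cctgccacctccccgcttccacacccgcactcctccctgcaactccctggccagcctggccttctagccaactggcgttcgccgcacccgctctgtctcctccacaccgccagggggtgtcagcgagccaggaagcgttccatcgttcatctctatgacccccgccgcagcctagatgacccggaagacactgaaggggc

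The motifs searched on both strands of the full window were those of factors known as regulators of nuclear respiratory genes, with a pair of general promoter elements. NRF1 was searched as GCGCATGC, ETS factors such as GABPA as CCGGAAGT, YY1 as AAGATGGCG, estrogen-related receptors as TCAAGGTCA, SP1 as GGGCGG and the TATA box as TATAAA, and none of these patterns contains another. In the stretches printed, Ndufa6 had an NRF1 match and Ndufs7 a TATA match, and the other 3 had none. Over the 33 promoters, the NRF1 pattern was in 9.09% (5.64% of the promoters of tested genes and 2.71% of all 32851 promoters). The ETS pattern was in 3.03% (9.07% and 3.89%), the SP1 pattern in 45.5% (64.9% and 35.7%) and the TATA pattern in 15.2% (6.65% and 13.6%). The estrogen-related receptor pattern was in none (0.248% and 0.423%). The median number of CG dinucleotides per promoter was 20 for the subunits, 21 for tested genes and 7 for all.

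The YY1 pattern was in 5 of the 33 promoters, or 15.2%, against 3.42% of the promoters of tested genes and 1.4% of all. The 5 genes are shown because their matches had the same place and strand: each began between 23 and 36 bases after the start, on the strand of the gene. The stretches are Ndufc1 at chr3:51408917-51408941 (minus), Ndufs7 at chr10:80249465-80249489 (plus), Ndufa9 at chr6:126849099-126849123 (minus), Ndufs6 at chr13:73328433-73328457 (minus) and Ndufs4 at chr13:114388045-114388067 (minus), with the match in capitals.
Ndufc1: tgcggaacAAGATGGCGccgtccgt
Ndufs7: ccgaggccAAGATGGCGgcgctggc
Ndufa9: tgtgggagAAGATGGCGgccgccgt
Ndufs6: tcaccggcAAGATGGCGgcggtgct
Ndufs4: cctacaggAAGATGGCGgcggtc

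The genes with this match had ratios on both sides of 1. Ndufc1 and Ndufs7 were lower at an unadjusted p under 0.05 (ratios 0.86 and 0.86), Ndufa9 had a ratio of 0.93, and Ndufs6 and Ndufs4 had ratios of 1.02 and 1.06. A match of letters is a description of the window and does not show that a factor binds there. The pattern holds the letters ATG, and each match lay after the start on the strand of the gene. Whether these matches lie in coding sequence, at the first codon, was not tested.

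Complex I transcripts were short beside the other tested genes. The most abundant transcript of the 34 ranged from 315 bases (Ndufc1) to 2661 (Ndufs1) with a median of 718, beside 2918 over all tested genes. Across the 34 subunits, which share all 4 libraries, the fold change had a Spearman coefficient of -0.02 with length, -0.22 with GC content and 0.17 with level. Exons of 13 of the 34 overlapped those of another protein-coding gene, among them Ndufb6 (Smim27), Ndufa3 (Tfpt), Ndufs3 (Kbtbd4) and Ndufb5 (Mrpl47). None of the 5 subunits with an unadjusted p under 0.05 did. Without a stated strand setting, reads from such overlaps cannot be assigned with certainty. Besides Ndufs5, a pseudogene of at least 95% identity over at least 50% of the transcript was found for Ndufa12, Ndufb11, Ndufs3 and Ndufs6, and their levels carry that uncertainty.

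No gene of the other respiratory and mitochondrial lists passed the test over all genes either, where 0.46% of all tested genes did. Ndufab1, the mitochondrial acyl carrier protein, measured 92.1 and 78.4 RPKM in Control and 76.7 and 78.6 in Chd1KD (ratio 0.91, limma, adjusted p = 0.44). Ndufa4, now placed with complex IV, measured 560.1 and 505.7 RPKM in Control and 502.9 and 512.9 in Chd1KD (ratio 0.95, limma, adjusted p = 0.63). The groups overlapped for both.

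Of 20 tested assembly factors, which build the complex and leave it, none passed over all genes, 11 were negative, and the median was -0.01. The assembly factor Ndufaf8 had the smallest p, with 31.8 and 27.5 RPKM in Control and 23.5 and 21.4 in Chd1KD (ratio 0.76, limma, unadjusted p = 0.0032, adjusted p = 0.11). Ndufaf7, a methyltransferase, measured 5.71 and 5.77 RPKM in Control and 6.33 and 7.20 in Chd1KD (ratio 1.18, limma, adjusted p = 0.26).

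None of the genes of complexes II, III, IV and V passed over all genes (8, 9, 10 and 16 tested), with medians of -0.09, -0.08, 0.00 and -0.04. The member of smallest p in complex IV was Cox4i1, a subunit that regulates its activity, at 594.1 and 542.5 RPKM in Control and 700.7 and 692.4 in Chd1KD (ratio 1.23, limma, unadjusted p = 0.0035, adjusted p = 0.11), followed by Cox7a2 at a ratio of 0.95. The smallest p in complexes II, III and V were those of Sdhaf3 and Sdhaf4 (ratios 0.78 and 0.91), Uqcr11 and Cyc1 (0.88 and 0.91), and Atp5j and Atp5h (1.10 and 0.91).

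Among 15 tested genes of iron-sulfur cluster assembly, which supplies the clusters of complex I, Isca1, an assembly protein of the clusters, had a ratio of 1.14 (limma, adjusted p = 0.19). Among 13 tested regulators of mitochondrial genes the smallest p were those of Polrmt, the mitochondrial RNA polymerase (0.85), and Tfb1m (0.76). Among 9 mitochondrial mass markers they were Tomm20 and Tomm40 (both 0.91), and among 10 NADH-producing enzymes Idh3g and Dld (0.92 and 1.09). None of these 4 lists held a gene that passed over all genes (limma), and their medians were -0.05, -0.04, -0.06 and -0.01. Their number at an unadjusted p under 0.05 was 2, 1, 0 and 0 (limma), where 18.5% of all tested genes reached that level.

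Each of these 10 lists summed to a higher RPKM in Control replicate 1 than in Control replicate 2. In Chd1KD, replicate 1 was the higher for 7 of the 10 and the lower for 3. The sum over all genes was also higher in replicate 1, at 484490 and 462332 in Control and 466950 and 459381 in Chd1KD. The list sums are not scaled to it, so their order does not set the lists apart. Complex V, for example, summed to 4995.9 and 4630.8 RPKM in Control and to 4749.5 and 4581.1 in Chd1KD. Complex II, which ran the other way in Chd1KD, summed to 391.7 and 359.6 RPKM in Control and to 356.6 and 361.8 in Chd1KD, and the mitochondrial gene regulators and the other nuclear complex I genes did likewise.

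**Figure D5:**
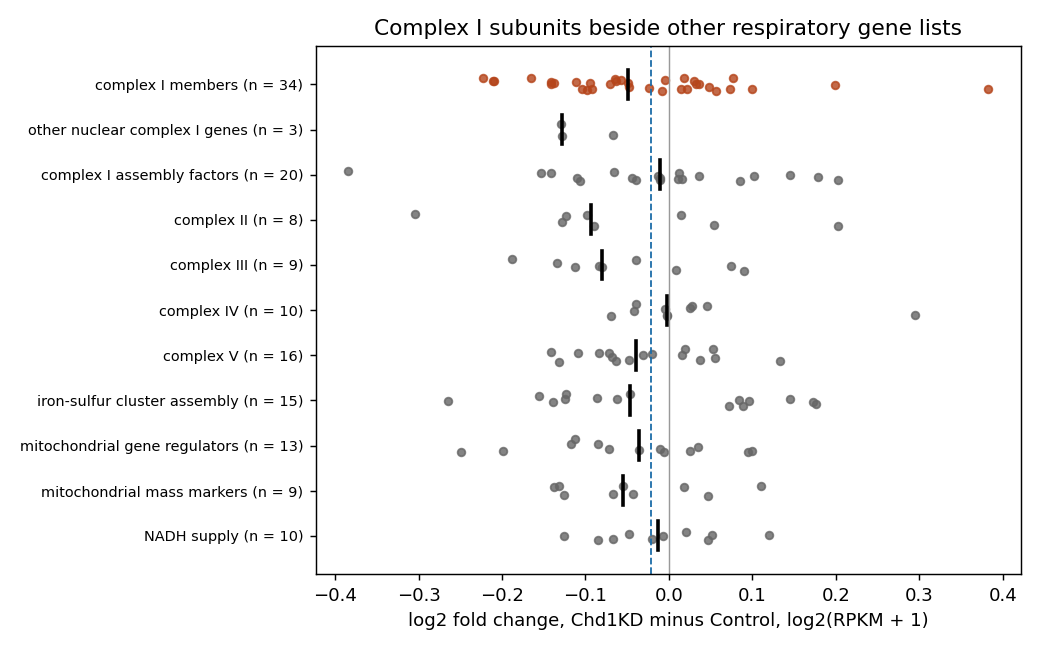
Log2 fold change (Chd1KD minus Control, log2(RPKM + 1)) of the 34 complex I members and of the tested genes of 10 other respiratory and mitochondrial lists, with each list's median as a black bar and the median of all tested genes dashed. All list medians lie between -0.13 and 0.00, and none of the genes drawn passed the test over all genes.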

How the data were processed

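Poly(A) RNA of 2 Control and 2 Chd1KD libraries was analysed. Per the file headers, the authors deposited RPKM for 30582 RefSeq transcript rows. The submitters' processing notes list Cufflinks 1.3.0 and TopHat 1.4.1, with mm10 as genome build. No source used here states the annotation release, strand setting or filters. Tables of the 4 single libraries equalled the series table.

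Gene names came from NCBI's GRCm38.p6 table, the source of gene positions (30003 rows), or GENCODE M21 (180), with 399 left unnamed (0.304% of summed RPKM), and RPKM was summed per gene. Genes averaging 1 RPKM or more were tested with limma 3.58.1 (R 4.3.3) on log2(RPKM + 1), using a trended variance prior without covariate or replicate block, and Benjamini-Hochberg adjustment over all 10209 genes. This scale understates changes of low genes. Depth is unknown, so no counting interval is given. The script was tested on simulated data.

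The members and lists were chosen with earlier results of these data known. All members are accounted for; singled out were, per place in the complex, the 4 members of smallest p, the 3 highest and 3 lowest, members whose rows differ in sign, and from other lists the 2 genes of smallest p, of which some are not reported here. Coa1, Ndufb1, Ndufb1-ps, Cd68 and the 7 mitochondrially encoded complex I genes matched no row and are not analysed here. Transcript length, GC content and near-identical copies (blastn 2.17.0) used GENCODE transcripts. Figures were drawn with matplotlib 3.10.9. Alternatives are given in the closing section.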

Additional observations from a re-analysis of the deposited data

How the results depend on the processing

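None of the 34 subunits was called over all genes under any of 12 other settings that kept all 4 libraries, where the threshold is an adjusted p under 0.05 (limma, 5 at an unadjusted p under 0.05 in the fit reported). Over all tested genes, 0 were called with no filter on low values, 6 without a variance trend and 12 with the most abundant transcript. The other settings called 45 (quantile normalization) to 325 (replicate block). Where so few genes were called, the absence of subunits among them says little. At an adjusted p under 0.10 the fit reported called 0, the robust trend has Ndufs5 at 0.099, and the replicate block has Ndufa8 at 0.056, Ndufc1 at 0.061, Ndufb6 at 0.077, Ndufs5 at 0.078, Ndufs7 at 0.081 and Ndufb7 at 0.092. For fits with 1 library left out, calls over all genes are not given here. Without Control replicate 2, which leaves 1 Control value, Ndufs5 was at 0.50. Subunits lower at an unadjusted p under 0.05 numbered 4, but 3 without a filter on low values, with quantile normalization and with the most abundant transcript, 2 with median-ratio scaling, 2 with a GC and length trend removed, 1 without a variance trend, 6 with the replicate block, and 0 (without Chd1KD replicate 2) to 10 (without Control replicate 2) with 1 library left out. Those higher numbered 1, but 2 with quantile normalization, with equal library sums, with the GC and length trend removed and with the replicate block, and 1 to 4 with 1 library left out (4 without Control replicate 1). Subunits whose groups did not overlap numbered 7, but 8 with median-ratio scaling and 14 with equal library sums. They numbered 18 to 23 with 1 library left out, where 1 value stands for a group. The fit assumes that value to vary like the other group. Such a value lies outside 2 others more easily than 2 values do. For these settings, shares over all tested genes are not given here for groups without overlap or for an unadjusted p under 0.05. Whether the changes in these counts set the subunits apart from other genes was therefore not tested. The median fold change, -0.0485 as reported, was -0.018 with equal library sums (all genes 0.0068), -0.0258 with median-ratio scaling (all genes -0.0005), -0.0345 with quantile normalization, -0.0329 with the most abundant transcript, 0.0001 with the GC and length trend removed, and -0.0851 to 0.0323 with 1 library left out.

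Signs of 29 subunits held under all 12 settings that kept every library, and of 14 also with each library left out. With median-ratio scaling Ndufa7 and Ndufb11 were at 0.015 and 0.0178. With quantile normalization Ndufs8, Ndufa7 and Ndufb11 were at 0.0058, 0.0047 and 0.0237. With equal library sums they were at 0.0072, 0.0231 and 0.0259. Ndufs1 was at 0.0363 with the most abundant transcript. With the GC and length trend removed Ndufv1, Ndufs8, Ndufa7 and Ndufb11 were at 0.0011, 0.0284, 0.0233 and 0.0306.

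With 1 library left out, the fold change ranged from -0.1576 to 0.0306 for Ndufv2, -0.1126 to 0.0166 for Ndufs3, -0.0617 to 0.0144 for Ndufs8, -0.0641 to 0.1284 for Ndufs6, -0.1031 to 0.1762 for Ndufa5 and -0.0671 to 0.0511 for Ndufa7. It ranged from -0.2277 to 0.0195 for Ndufa9, -0.2462 to 0.0576 for Ndufa1, -0.225 to 0.0413 for Ndufa10, -0.196 to 0.0538 for Ndufa11, -0.0307 to 0.0737 for Ndufa13 and -0.0446 to 0.1397 for Ndufc2. For the distal arm it ranged from -0.0293 to 0.141 for Ndufb2, -0.0659 to 0.0955 for Ndufb3, -0.0181 to 0.054 for Ndufb8, -0.1195 to 0.0045 for Ndufb9, -0.2264 to 0.0047 for Ndufb10 and -0.0139 to 0.0036 for Ndufb11. The cause was not tested.

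The replicate numbers carry no stated pairing, and the deviations of same-numbered libraries correlated at 0.22 across genes. With the replicate number as a block, 0 subunits were called, 6 were lower and 2 higher at an unadjusted p under 0.05, and the count of calls over all genes was 325 in place of 47.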
